A study of Mus musculus with 6 samples.

Results

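The genes described here encode the machinery that copies DNA, the enzymes that supply its nucleotides and a few regulators of entry into S phase. They are 39 named genes of the 55414 in the gene table, listed by name for this work and found by their symbols. No measured value entered the rule, but the list was chosen with earlier results of these data known. All 39 passed the filter on low counts, which kept 23003 genes for testing. By role, 10 act in origin licensing and as the core of the replicative helicase, 6 in activating that helicase, 5 as polymerases and primase, 9 as sliding clamp, clamp loader, single-strand binding protein or lagging strand enzyme, 5 in nucleotide synthesis and 4 in S phase entry and chromatin.

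RNA of mouse CD8+ T cells of OT-I genotype was measured in 6 libraries. OT-I cells carry a transgenic T cell receptor that recognises a peptide of ovalbumin. The 3 groups hold 2 libraries each: cells at 4 days after the N4 peptide, the agonist of that receptor, cells at 4 days after the T4 peptide, a weaker ligand of it, and naive cells. Both peptides were given together with anti-OX40/anti-41BB, antibodies to costimulatory receptors, and the effects of peptide and antibodies cannot be told apart in a comparison with naive cells. The labels name spleen and lymph nodes as the source, while the series' design text names the spleen, and neither gives the strain, age or sorting of the mice or cells. Nothing states that both libraries of a group came from separate mice. The p-values therefore reflect how far these libraries differ among themselves, and part of that may be technical.

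DNA replication starts at origins that are licensed in G1, when the origin recognition complex, Cdc6 and Cdt1 load the Mcm2 to Mcm7 ring onto DNA. In S phase Cdc45 and the GINS complex join the ring to form the moving helicase, polymerase alpha and primase lay down primers, and polymerases epsilon and delta extend them with the sliding clamp PCNA. Ribonucleotide reductase, thymidylate synthase, thymidine kinase and dUTPase keep the nucleotide pool supplied and free of uracil. Transcription factors of the E2F family drive many of these genes, and resting T cells leave quiescence and divide many times after antigen recognition.

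Promoter windows of RefSeq (GRCm38.p6, from 250 bases before to 50 bases after an annotated start) were found for 32 of the 39 genes, in 37 windows. They were searched on both strands for 3 sets of letters that E2F proteins are known to bind, namely TTCCCGC, its variant with TTGGCGC and the further variant written as TTCGCGC; the latter's reverse complement can overlap the former variant. At least 1 of them stood in a window of 18 of the 32 genes (56.2%), against 8.1% of all 32851 windows, 9.2% of all 27025 genes with a window and 11.8% of the 17492 protein-coding ones. The windows of the 39 genes were richer in G and C (median 60% against 52.7% of all windows), and among windows with at least 55% the share was 15%. Of 17 G2 and mitosis genes with a window, 3 held one. A match is a description of the letters and no evidence of binding. The 250 bases before the start are shown for the 4 genes with such letters and the smallest p in N4 against naive cells, to show such letters in place in genes that differed. The windows are 5′ to 3′ in the direction of the gene, and capitals mark the letters on either strand.
Uhrf1 lies at chr17:56303087-56303336 on the plus strand, Pola1 at chrX:93632156-93632405 on the minus strand, Rrm1 at chr7:102441445-102441694 on the plus strand and Orc1 at chr4:108579204-108579453 on the plus strand.
Uhrf1: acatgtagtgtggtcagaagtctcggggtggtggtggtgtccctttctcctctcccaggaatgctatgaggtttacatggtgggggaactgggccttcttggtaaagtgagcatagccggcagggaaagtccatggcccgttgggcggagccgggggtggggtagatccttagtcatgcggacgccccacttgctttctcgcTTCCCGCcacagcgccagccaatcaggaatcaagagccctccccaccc
Pola1: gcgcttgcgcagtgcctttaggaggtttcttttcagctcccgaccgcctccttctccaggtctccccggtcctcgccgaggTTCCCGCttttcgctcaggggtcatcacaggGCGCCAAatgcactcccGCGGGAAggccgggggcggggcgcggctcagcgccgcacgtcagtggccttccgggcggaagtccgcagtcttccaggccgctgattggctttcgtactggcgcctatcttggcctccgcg
Rrm1: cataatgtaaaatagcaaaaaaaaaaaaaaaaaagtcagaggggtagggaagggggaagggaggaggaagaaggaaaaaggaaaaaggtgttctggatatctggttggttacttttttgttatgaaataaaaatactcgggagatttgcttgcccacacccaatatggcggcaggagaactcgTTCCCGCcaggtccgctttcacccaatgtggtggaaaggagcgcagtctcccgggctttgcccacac
Orc1: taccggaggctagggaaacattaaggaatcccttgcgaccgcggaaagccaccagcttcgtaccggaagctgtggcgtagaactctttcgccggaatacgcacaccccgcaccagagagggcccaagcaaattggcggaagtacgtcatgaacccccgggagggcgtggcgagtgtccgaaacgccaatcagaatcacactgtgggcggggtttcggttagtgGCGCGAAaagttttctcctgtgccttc
The shown bases of Pola1 held 3 matches, and another began 15 bases after the start. Those of Uhrf1, Rrm1 and Orc1 held 1 each. Windows of Pcna, Dut and Orc6, 3 of the 5 genes that were higher in N4 than in T4 cells, held none, and Ccne2, another of the 5, had no window in the table.

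The library totals ran from 269033066 to 335968843 estimated counts. Levels are given as CPM, the usual unit of counts scaled to a common library size, after TMM scaling, whose factors ran from 0.641 in an N4 library to 1.36 in a T4 library. Markers of T cells were present in every library: the 7 CD8 T cell markers summed to 3519 and 4467 CPM with N4, 3202 and 3375 with T4 and 4691 and 4695 in naive cells, and Cd2 alone of the 7 passed the test, lower in N4 than in naive. Cd3d made up much of the N4 sums (2147 and 3012 CPM) and alone of the 7 was fitted above naive in N4. The fitted folds of the others in N4 against naive ran from 0.33 (Cd2) to 0.74 (Cd3g). Markers of other cells differed between the groups. The 12 macrophage and monocyte markers summed to 17.0 to 20.5 CPM in N4, 258 to 272 in T4 and 2349.96 to 2694 in naive libraries, with 11 lower in N4 than in naive and Adgre1, Spic and Cd163 at 0 in both N4 libraries. The 8 erythroid markers summed to 365 to 428, 6650.3 to 8239 and 3517 to 9284 CPM, with all 8 lower in N4 than in naive and Alas2 at 0 in N4. The 11 B cell markers, of which 10 were tested, summed to 18.2 to 35.5, 201 to 235 and 938 to 2764 CPM, with 7 lower in N4 than in naive. Pax5 and Cr2 were among those at 0 in N4, but were also low in naive cells, with means of 0.048 and 0.211 CPM. The 8 neutrophil markers summed to 39.3 to 47.9, 3.96 to 10.9 and 2467 to 25532 CPM, with 6 lower in N4 than in naive and Ltf at 0 in N4. For the 10 dendritic cell markers the sums were 67.8 to 111, 439 to 451 and 1237 to 1774 CPM (5 lower in N4 than in naive, Siglech at 0 in N4). For the 6 natural killer cell markers the sums were 1005 to 1256, 778 to 829 and 1266 to 3906 CPM (3 lower and Klrk1 higher in N4 than in naive). Most of the N4 sum was Gzma and Klrk1, with means of 872 and 209 CPM. The 3 lower ones, Ncr1, Klrb1c and Tyrobp, had means of 0.66, 1.24 and 38.7 CPM in N4. Their means were 7.73, 10.5 and 360 in T4 and 25.6, 43.4 and 1835 in naive cells. Eomes was at 9.36 in N4 and 8.16 in naive cells. The 4 CD4 and regulatory T cell markers stayed between 0.958 and 5.04 CPM in all 6 libraries, with Cd4 at 0 in N4. Between N4 and T4, lower in N4 were 5 of the 12 macrophage, 7 of the 8 erythroid, 4 of the 10 tested B cell, 3 of the 10 dendritic and 3 of the 6 natural killer cell markers. Between T4 and naive none of these markers passed the test. The part of these cells in the differences below was not tested. In bulk RNA, fewer cells of a kind and less RNA per cell cannot be told apart, and this holds equally for the share of dividing cells.

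Replication and S phase genes stood higher in N4 than in naive cells. Summed over the 39 genes, the level was 4289.95 and 4647 CPM with N4, 1899 and 1847 with T4 and 923 and 1189.5 in naive cells. The 3 groups were ordered N4, T4, naive with no overlap. Dut and Pcna, which encode dUTPase and the sliding clamp, carried 59.6% and 65.7% of that sum with N4, 40.1% and 44.1% with T4 and 42.9% and 57.0% in naive cells. The median gene of the list lay at 35.9 and 28.7 CPM with N4, 23.97 and 21.4 with T4 and 11.3 and 9.36 in naive cells, once more without overlap. As shares of the raw counts, with no TMM factor, the 39 genes held 0.352% and 0.298% with N4, 0.258% and 0.237% with T4 and 0.121% and 0.0991% in naive cells. Without Dut and Pcna the raw shares were 0.142% and 0.102%, 0.155% and 0.132%, and 0.0688% and 0.0426%, so that N4 and T4 overlapped while both stayed above naive.

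**Figure D1:**
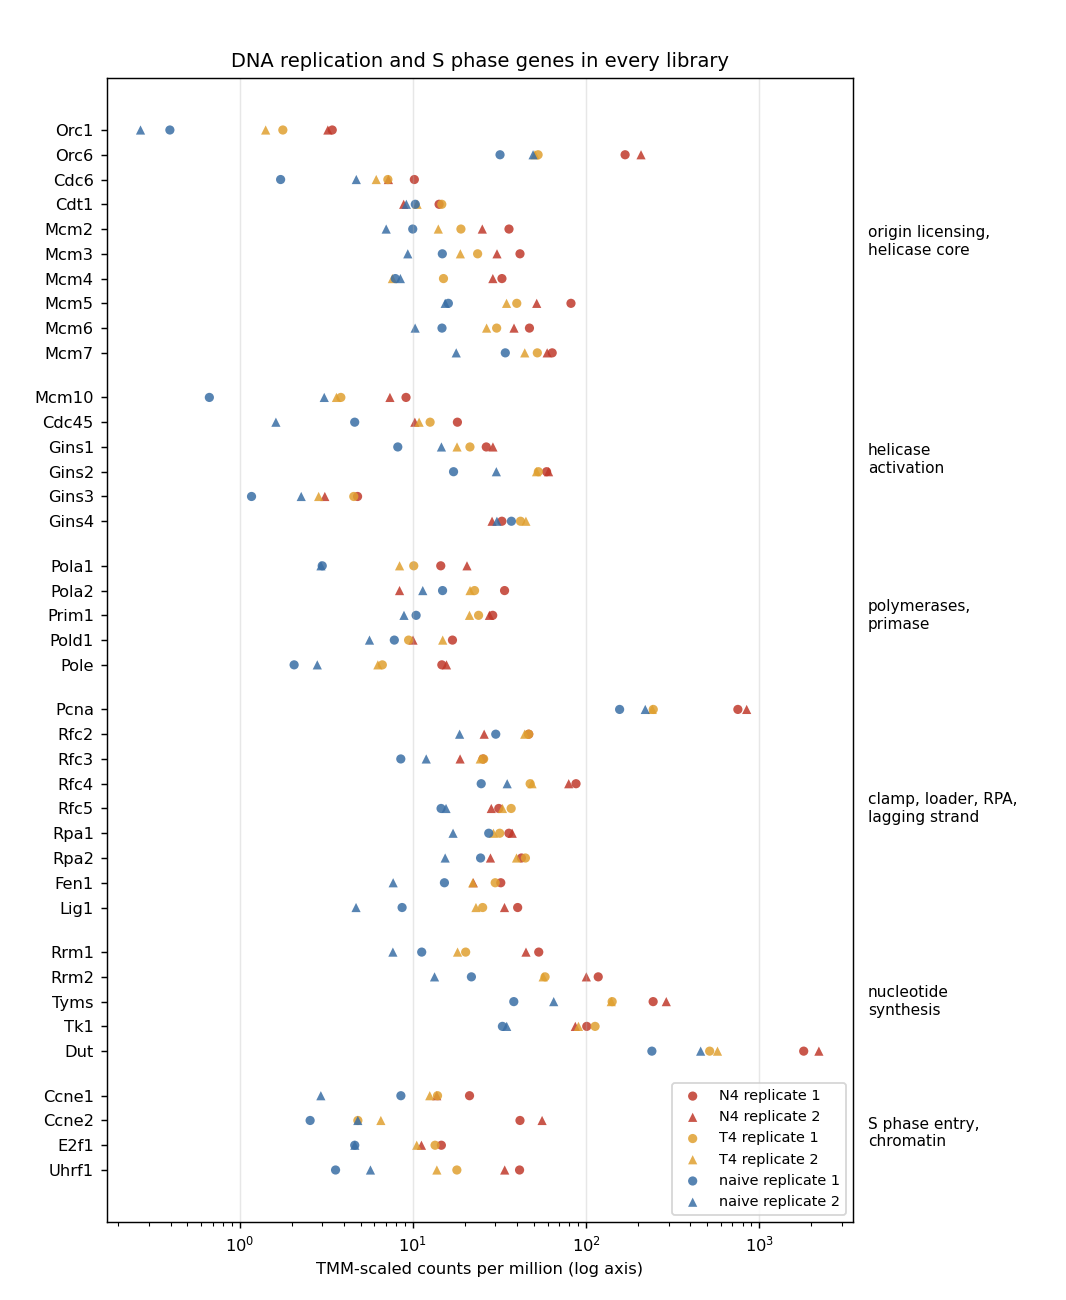
Level of each of the 39 genes in each of the 6 libraries, in TMM-scaled CPM on a log axis, grouped by role; circles are replicate 1 and triangles replicate 2 of a group. For 24 of the 39 genes both N4 libraries lie above both T4 libraries and both T4 libraries above both naive libraries, an order that rests on the TMM scale between N4 and T4.

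In N4 against naive cells, 23 of the 39 genes were higher and none lower at an adjusted p under 0.05 (edgeR's quasi-likelihood test, Benjamini-Hochberg over all 23003 genes). Over all genes tested, 4.87% were higher and 7.18% lower by the same rule, 12.1% in either direction. The median log2 difference was 1.58 over the list (fold 2.99, median SE 0.33) and -0.09 over all genes tested (median SE 0.60). The genes of the list were thus measured with less spread than most genes. Both N4 libraries lay above both naive libraries for 35 of the 39 genes, against 26.5% of all genes, and no gene of the list had both below, against 28.9%. The fitted difference was above 0 for 38 of the 39, Gins4 being the exception, and with library totals in place of TMM for 36, with Gins4, Cdt1 and Rfc2 below 0. The 16 genes that did not pass were Cdc6, Cdt1, Mcm7, Mcm10, Cdc45, Gins1, Gins3, Gins4, Pola2, Pold1, Rfc2, Rfc3, Rpa1, Rpa2, Fen1 and Ccne1. The count depended on single libraries: the test called 11 when N4 replicate 1 was left out, 8 when N4 replicate 2 was, and 14 without either T4 library in turn, which enter through the shared estimate of spread. Calls over all genes fell in the same fits, from 12.1% to 3.67%, 2.45%, 5.51% (without T4 replicate 1) and 5.05% (without T4 replicate 2). Without naive replicate 1 the list's count was 22 (9.57% of all genes) and without naive replicate 2, the library with the high neutrophil markers, it was 27 (17.4% of all genes). Under all 14 alternatives tried, 5 of the 23 stayed past the threshold: Orc1, Pola1, Pole, Ccne2 and Uhrf1.

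In T4 against naive cells, no gene of the list passed the threshold with edgeR, where 0.117% of all genes tested did in either direction, 0.0826% higher and 0.0348% lower. Without adjustment, 23 of the 39 had p under 0.05, against 14.5% of all genes tested. DESeq2's Wald test called 17 of the 39, all higher in T4, and 9.87% of the genes to which it gave an adjusted p. Every fitted difference of the 39 was above 0, with TMM and with library totals. The median log2 difference was 1.08 over the list (fold 2.11) and 0.00 over all genes tested. Both T4 libraries lay above both naive libraries for 38 of the 39 genes, against 26.2% of all genes, with Mcm4 the exception. The smallest adjusted p of the list in edgeR was 0.0756, for Tk1. N4 and T4 were compared with the same 2 naive libraries, so these comparisons are not independent of each other.

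In N4 against T4 cells, 5 of the 39 genes were higher and none lower at an adjusted p under 0.05: Orc6, Pcna, Rrm1, Dut and Ccne2. Over all genes tested 3.48% were higher and 4.47% lower, 7.96% in either direction. The median log2 difference was 0.50 over the list and -0.20 over all genes tested. The direction of that median depended on the scaling: with library totals it was -0.37, with 15 of the 39 genes above 0 and 24 below, while the median over all genes moved to -1.05, so the list lay 0.68 above all genes with library totals and 0.69 above them with TMM. Both N4 libraries lay above both T4 libraries for 25 genes on the TMM scale (27.6% of all genes) and below them for 2, Gins4 and Rfc5 (37.6% of all genes). None of the 39 genes passed without either N4 or either T4 library in turn. Few genes of any kind were called in those 4 fits: 1.13% of all genes without N4 replicate 1, 0.178% without T4 replicate 1 and 0 genes without N4 replicate 2 or T4 replicate 2. The list's count was 11 without naive replicate 1, 12 without naive replicate 2, 8 with the replicate number as a block and 14 with DESeq2, where 17.3%, 17.6%, 14.6% and 27.3% of all genes passed.

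The order N4 above T4 above naive, with no overlap on the TMM scale, held for 24 of the 39 genes, against 4.96% of all genes tested. All 4 peptide-stimulated libraries lay above both naive libraries for 34 genes, against 10.6% of all genes. By mean, N4 was highest for 31 genes, T4 for 8 and naive for none, and naive was lowest for all but Gins4.

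**Figure D2:**
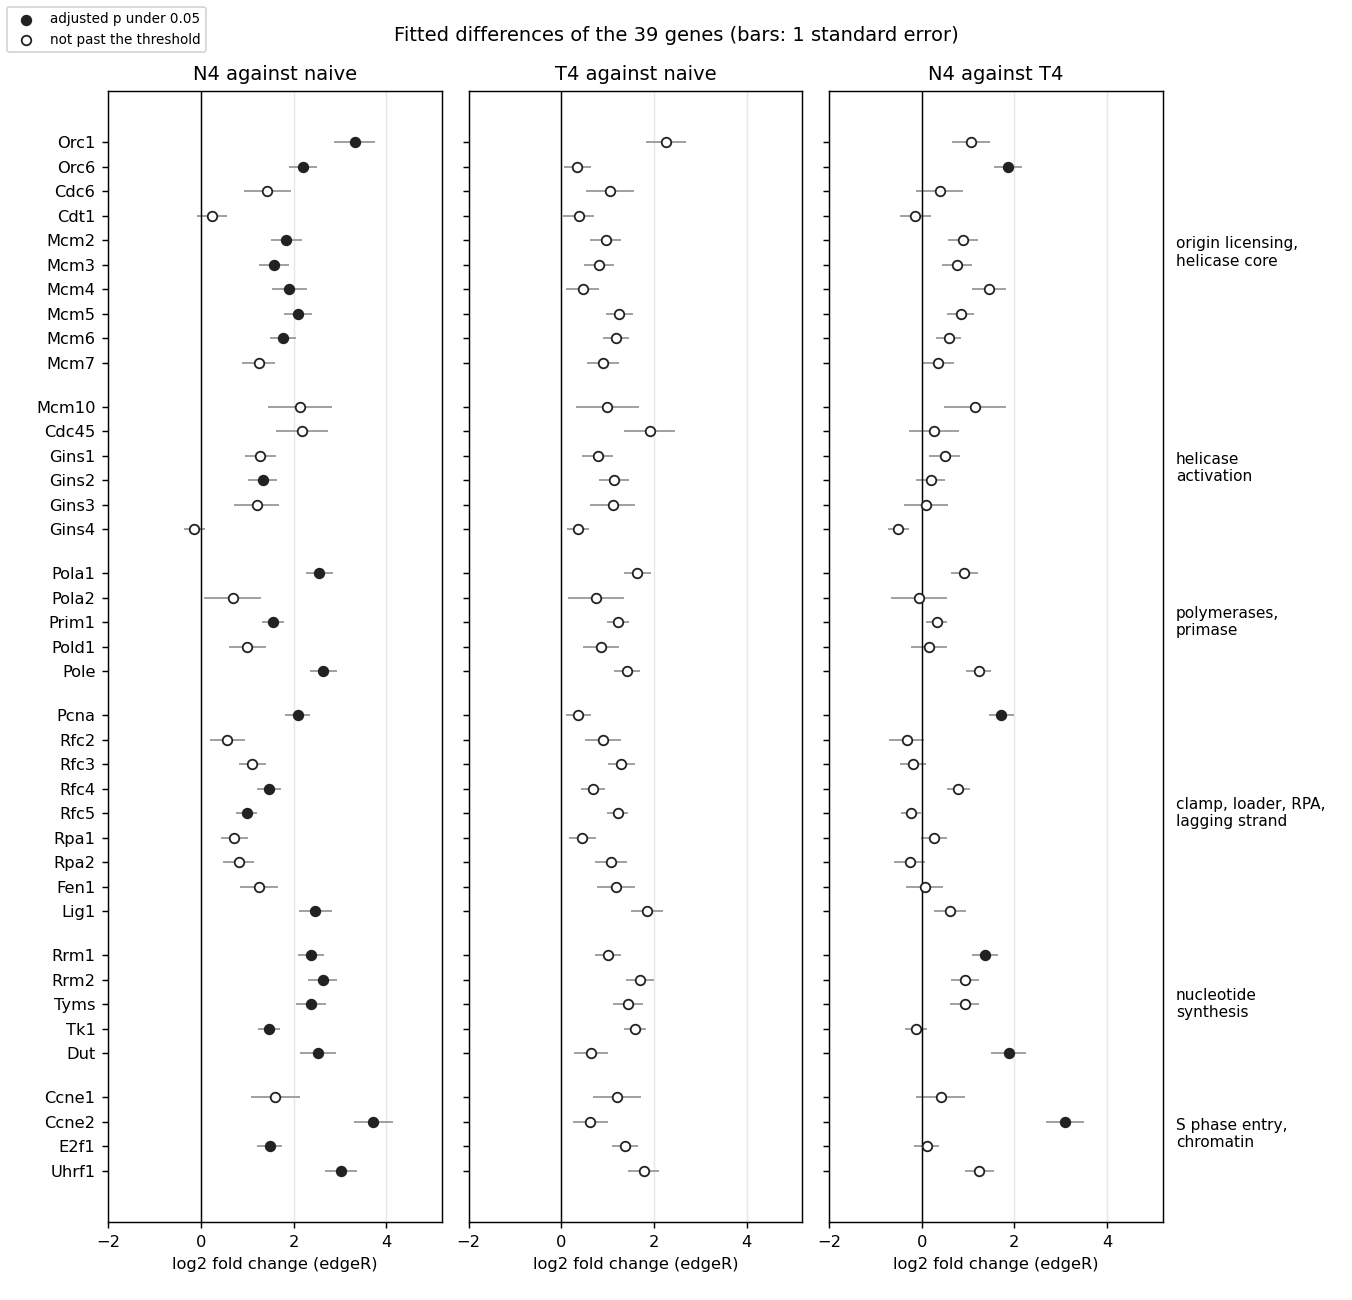
Fitted log2 fold change of the 39 genes in N4 against naive, T4 against naive and N4 against T4 libraries (edgeR, TMM scale; bars are 1 standard error), grouped by role, with filled points at an adjusted p under 0.05. Filled points number 23, 0 and 5, and in N4 against T4 the values shift down with library totals, where 24 of the 39 fall below 0.

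Of the 10 licensing and helicase core genes, 7 rose in N4 against naive, and Cdc6, Cdt1 and Mcm7 did not pass. Orc1 (ENSMUSG00000028587.19), the largest subunit of the origin recognition complex, stood at 3.43 and 3.23 CPM with N4, 1.78 and 1.42 with T4 and 0.396 and 0.268 in naive cells. The 3 groups did not overlap, and the level was low everywhere. Orc1 was 9.995-fold higher in N4 than in naive (log2 difference 3.32 ± 0.44, SE, adjusted p = 0.0129), and T4 against naive gave 2.26 ± 0.43 (adjusted p = 0.105). Orc6 (ENSMUSG00000031697.13), the smallest subunit of the same complex, stood at 168 and 208 CPM with N4, 52.9 and 50.7 with T4 and 31.9 and 49.5 in naive cells. N4 stood apart, while T4 lay just above naive. Orc6 was 4.62-fold higher in N4 than in naive (2.21 ± 0.30, adjusted p = 0.0134) and 3.63-fold higher than in T4 (1.86 ± 0.30, adjusted p = 0.0282), while T4 against naive gave 0.35 ± 0.29 (adjusted p = 0.667).

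Of the 6 ring subunits of the helicase, 5 rose in N4 against naive, and Mcm7 missed the threshold. Mcm5 stood at 81.8 and 51.9 CPM with N4, 39.8 and 34.8 with T4 and 16.04 and 15.4 in naive cells, in that order without overlap, and was 4.26-fold higher in N4 than in naive (log2 difference 2.09 ± 0.30, adjusted p = 0.0147). Mcm6 was 3.41-fold, Mcm4 3.76-fold, Mcm2 3.59-fold and Mcm3 2.99-fold higher in N4 than in naive (adjusted p 0.0188, 0.0288, 0.0247 and 0.0354). Mcm7, at 63.8 and 59.6 CPM with N4, 52.3 and 44.3 with T4 and 34.2 and 17.8 in naive cells, gave 1.25 ± 0.35 (adjusted p = 0.0719). None of the 6 ring genes passed between N4 and T4. The nearest to the threshold was Mcm4 (1.44 ± 0.36, adjusted p = 0.0622), whose T4 libraries, 15.0 and 7.63 CPM, spanned the naive ones, 7.93 and 8.48. In T4 against naive the log2 differences of the 6 ran from 0.47 (Mcm4) to 1.25 (Mcm5).

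The 2 loading factors outside the ring, Cdc6 and Cdt1, did not pass in any comparison. Cdc6, the loader ATPase, stood at 10.2 and 7.23 CPM with N4, 7.18 and 6.15 with T4 and 1.73 and 4.72 in naive cells. Its stimulated libraries all lay above the naive ones, but the spread within naive was wide, and N4 against naive gave a log2 difference of 1.44 ± 0.51 (adjusted p = 0.123). Cdt1, which brings the ring to the origin, stood at 14.2 and 8.86 CPM with N4, 14.7 and 10.6 with T4 and 10.3 and 9.18 in naive cells. The N4 and naive libraries overlapped. Its log2 differences were 0.24 ± 0.33 in N4 and 0.37 ± 0.33 in T4 against naive, the former turning to -0.29 with library totals.

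Of the 6 helicase activation genes, Gins2 alone passed in N4 against naive, and the fitted values were above 0 for 5. Gins2, a subunit of the GINS complex, stood at 59.2 and 60.8 CPM with N4, 53.0 and 51.8 with T4 and 17.2 and 30.4 in naive cells. The 4 stimulated libraries lay close together, above both naive ones. It was 2.52-fold higher in N4 than in naive (log2 difference 1.34 ± 0.32, adjusted p = 0.0475), a value that missed the threshold under 10 of 14 alternatives, and T4 against naive gave 1.14 ± 0.32 (adjusted p = 0.197). Cdc45, the other cofactor of the helicase, stood at 18.1 and 10.3 CPM with N4, 12.6 and 10.9 with T4 and 4.62 and 1.62 in naive cells. N4 and T4 overlapped and naive stood below, with log2 differences of 2.18 ± 0.56 in N4 and 1.91 ± 0.56 in T4 against naive (adjusted p 0.0578 and 0.210). Gins1 gave 1.28 ± 0.34, Gins3 1.20 ± 0.49 and Mcm10, which helps switch the helicase on, 2.14 ± 0.70 in N4 against naive (adjusted p 0.0602, 0.161 and 0.0996).

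Gins4, the remaining GINS subunit, was alone among the 39 in a fitted N4 value below naive. It stood at 32.7 and 28.7 CPM with N4, 41.8 and 44.96 with T4 and 37.1 and 30.6 in naive cells. T4 was highest, and N4 and naive overlapped. The log2 difference was -0.14 ± 0.23 in N4 against naive and 0.36 ± 0.23 in T4 against naive (adjusted p 0.727 and 0.550), and -0.50 ± 0.23 in N4 against T4 (adjusted p = 0.212).

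Among the 5 polymerase and primase genes, Pola1, Pole and Prim1 rose in N4 against naive. Pole (ENSMUSG00000007080.15), the catalytic subunit of the leading strand polymerase epsilon, stood at 14.7 and 15.6 CPM with N4, 6.67 and 6.29 with T4 and 2.07 and 2.81 in naive cells. The groups were well separated. Pole was 6.23-fold higher in N4 than in naive (log2 difference 2.64 ± 0.29, adjusted p = 0.00938), while N4 against T4 gave 1.23 ± 0.28 (adjusted p = 0.0510) and T4 against naive 1.41 ± 0.28 (adjusted p = 0.113). Pola1 (ENSMUSG00000006678.7), the catalytic subunit of the priming polymerase alpha, stood at 14.5 and 20.5 CPM with N4, 10.1 and 8.39 with T4 and 3.002 and 2.95 in naive cells, with no overlap. It was 5.89-fold higher in N4 than in naive (2.56 ± 0.30, adjusted p = 0.0100), and T4 against naive gave 1.64 ± 0.29 (adjusted p = 0.0956). Prim1, the primase subunit that makes the RNA primer, was 2.93-fold higher in N4 than in naive (1.55 ± 0.24, adjusted p = 0.0168) and gave 1.22 ± 0.23 in T4 (adjusted p = 0.107).

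Both other polymerase genes varied within N4. Pola2, the accessory subunit of polymerase alpha, stood at 33.9 and 8.39 CPM with N4, 22.7 and 21.4 with T4 and 14.9 and 11.4 in naive cells. The N4 libraries held both the highest and the lowest of the 6 values, and N4 against naive gave a log2 difference of 0.69 ± 0.61 (adjusted p = 0.488). Without N4 replicate 1 it was -0.65. Pold1, the catalytic subunit of polymerase delta, stood at 16.9 and 10.03 CPM with N4, 9.46 and 14.9 with T4 and 7.82 and 5.62 in naive cells. N4 and T4 overlapped above naive, and the difference from naive was 1.00 ± 0.39 in N4 and 0.86 ± 0.39 in T4 (adjusted p 0.148 and 0.391).

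Of the 9 clamp, clamp loader, single-strand binding and lagging strand genes, Pcna, Lig1, Rfc4 and Rfc5 rose in N4 against naive. Pcna (ENSMUSG00000027342.15) stood at 752 and 845 CPM with N4, 244 and 241 with T4 and 156 and 219.6 in naive cells. N4 stood far above both other groups, which were close to each other without overlapping. Pcna was 4.25-fold higher in N4 than in naive (log2 difference 2.09 ± 0.28, adjusted p = 0.0125) and 3.29-fold higher than in T4 (1.72 ± 0.27, adjusted p = 0.0279), while T4 against naive gave 0.37 ± 0.27 (adjusted p = 0.603). A processed pseudogene, Pcna-ps2, was listed at 6.16% to 6.58% of the Pcna level in each of the 6 libraries, so the division of reads between these near-identical sequences is uncertain. Lig1, which seals the nicks between lagging strand fragments, stood at 40.3 and 33.8 CPM with N4, 25.3 and 23.1 with T4 and 8.67 and 4.70 in naive cells, with no overlap. It was 5.54-fold higher in N4 than in naive (2.47 ± 0.36, adjusted p = 0.0151), and T4 against naive gave 1.86 ± 0.35 (adjusted p = 0.105).

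The clamp loader subunits differed in their order on the TMM scale. Rfc4 stood at 87.5 and 79.4 CPM with N4, 47.6 and 48.8 with T4 and 24.8 and 35.1 in naive cells, and was 2.79-fold higher in N4 than in naive (log2 difference 1.48 ± 0.26, adjusted p = 0.0230). Rfc5 stood at 31.4 and 28.4 CPM with N4, 37.0 and 32.9 with T4 and 14.6 and 15.6 in naive cells. For Rfc4 the order was N4, T4, naive, and for Rfc5 T4 lay above N4. With library totals the log2 difference of Rfc4 in N4 against T4 was -0.052. With a correction for length that of Rfc5 was 0.00049. Rfc5 was 1.98-fold higher in N4 than in naive (0.99 ± 0.22, adjusted p = 0.0423), missing the threshold under 8 of 14 alternatives, and T4 against naive gave 1.21 ± 0.22 (adjusted p = 0.102). Rfc2 and Rfc3 also had their highest mean in T4, with log2 differences of -0.33 ± 0.38 and -0.18 ± 0.29 in N4 against T4 (adjusted p 0.620 and 0.726). The single-strand binding genes Rpa1 and Rpa2 gave 0.72 ± 0.29 and 0.82 ± 0.34 in N4 against naive (adjusted p 0.157 and 0.165). Fen1, the flap nuclease of lagging strand synthesis, stood at 32.2 and 22.4 CPM in N4 and 29.9 and 22.2 in T4, levels that overlapped, and at 15.2 and 7.70 in naive libraries.

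All 5 nucleotide synthesis genes rose in N4 against naive, and 2 of them, Dut and Rrm1, were also higher in N4 than in T4. Dut (ENSMUSG00000027203.16), the dUTPase that keeps uracil out of DNA, stood at 1804 and 2207 CPM with N4, 517 and 574 with T4 and 239.8 and 459 in naive cells. N4 stood apart, and T4 and naive were next to each other without overlap. Dut was 5.74-fold higher in N4 than in naive (log2 difference 2.52 ± 0.38, adjusted p = 0.0170) and 3.68-fold higher than in T4 (1.88 ± 0.38, adjusted p = 0.0407), while T4 against naive gave 0.64 ± 0.37 (adjusted p = 0.497). Rrm1 (ENSMUSG00000030978.11), the large subunit of ribonucleotide reductase, stood at 53.3 and 45.01 CPM with N4, 20.2 and 18.1 with T4 and 11.3 and 7.67 in naive cells. It was 5.19-fold higher in N4 than in naive (2.38 ± 0.29, adjusted p = 0.0109) and 2.57-fold higher than in T4 (1.36 ± 0.28, adjusted p = 0.0431). Rrm2, the small subunit whose supply follows the cell cycle, stood at 118 and 100.4 CPM with N4, 58.0 and 56.5 with T4 and 21.8 and 13.4 in naive cells. It was 6.20-fold higher in N4 than in naive (2.63 ± 0.31, adjusted p = 0.0107), and neither N4 against T4 (0.93 ± 0.30, adjusted p = 0.103) nor T4 against naive (1.70 ± 0.30, adjusted p = 0.0964) passed.

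Tyms, thymidylate synthase, stood at 244 and 290.4 CPM with N4, 141 and 139.8 with T4 and 38.3 and 65.1 in naive cells, in that order without overlap. It was 5.17-fold higher in N4 than in naive (log2 difference 2.37 ± 0.33, adjusted p = 0.0135). Tk1, the thymidine kinase of the salvage route, had another order: 101 and 86.7 CPM with N4, 113 and 90.4 with T4 and 32.9 and 34.8 in naive cells. N4 and T4 overlapped, with naive far below. The log2 difference was 1.47 ± 0.24 in N4 (adjusted p = 0.0198) and 1.58 ± 0.24 in T4 (adjusted p = 0.0756) against naive, and -0.11 ± 0.24 in N4 against T4 (adjusted p = 0.802).

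Of the 4 S phase entry and chromatin genes, Ccne2, Uhrf1 and E2f1 rose in N4 against naive. Ccne2 (ENSMUSG00000028212.17), a cyclin E that partners Cdk2 at S phase entry, stood at 41.6 and 55.7 CPM with N4, 4.82 and 6.54 with T4 and 2.56 and 4.82 in naive cells. N4 stood apart from T4 and naive, whose nearest values were almost equal. Ccne2 had the largest differences of the 39 genes in both comparisons of N4: 13.2-fold against naive (log2 difference 3.72 ± 0.42, adjusted p = 0.00962) and 8.56-fold against T4 (3.10 ± 0.41, adjusted p = 0.0229), while T4 against naive gave 0.63 ± 0.38 (adjusted p = 0.528). Ccne1, the other cyclin E, stood at 21.3 and 13.7 CPM with N4, 13.9 and 12.5 with T4 and 8.54 and 2.95 in naive cells, with N4 and T4 overlapping. Its difference from naive was 1.61 ± 0.53 in N4 and 1.20 ± 0.53 in T4 (adjusted p 0.103 and 0.373).

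Uhrf1 (ENSMUSG00000001228.15), which recruits the maintenance DNA methyltransferase to newly copied DNA, stood at 41.3 and 33.9 CPM with N4, 18.0 and 13.8 with T4 and 3.58 and 5.70 in naive cells. The groups did not overlap. Uhrf1 was 8.11-fold higher in N4 than in naive (log2 difference 3.02 ± 0.34, adjusted p = 0.00962), with 1.77 ± 0.33 in T4 against naive (adjusted p = 0.102) and 1.25 ± 0.32 in N4 against T4 (adjusted p = 0.0652). E2f1, a transcription factor that activates many genes of this list, stood at 14.6 and 11.2 CPM with N4, 13.4 and 10.54 with T4 and 4.62 and 4.63 in naive cells. N4 and T4 overlapped at about the same level. It was 2.79-fold higher in N4 than in naive (1.48 ± 0.28, adjusted p = 0.0271), and T4 against naive gave 1.37 ± 0.28 (adjusted p = 0.119).

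Levels can be compared between genes only per length, so CPM were divided by the transcript length of each gene, in kilobases, weighted by the counts of its transcripts. On this scale Dut was the highest of the 39 genes in N4, at 1087 and 1330.3 CPM per kb, followed by Pcna at 497 and 559 and Orc6 at 131 and 162. Orc1 was the lowest of the 39 in all 3 groups by mean, at 1.15 and 1.09 CPM per kb with N4, 0.598 and 0.476 with T4 and 0.133 and 0.0902 in naive cells. The subunits of the origin recognition complex in the list thus stood at its opposite ends. Ccne2 was 13th of 39 in N4 and 33rd in T4 and in naive cells. Gins4 was 10th in N4, 7th in T4 and 4th in naive cells.

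Subunits of 1 complex stood at different levels. The ratio of the highest to the lowest of Mcm2 to Mcm7, per length, was 3.03 and 2.99 with N4, 4.68 and 7.81 with T4 and 5.80 and 3.21 in naive cells. Mcm7 was highest in 5 of the 6 libraries, with Mcm5 above it in N4 replicate 1. In the GINS complex Gins3 was lowest in every library, from 0.478 to 1.95 CPM per kb, and the ratio of highest to lowest ran from 12.9 to 57.5. Gins4 was the highest of the complex in T4 and naive libraries and Gins1 in N4 libraries. In the clamp loader Rfc4 was highest in every library, from 20.02 to 70.6 CPM per kb. Of ribonucleotide reductase, Rrm2 stood 4.09 and 4.14 times as high as Rrm1 in N4, 5.33 and 5.78 times in T4 and 3.59 and 3.23 times in naive libraries.

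**Figure D3:**
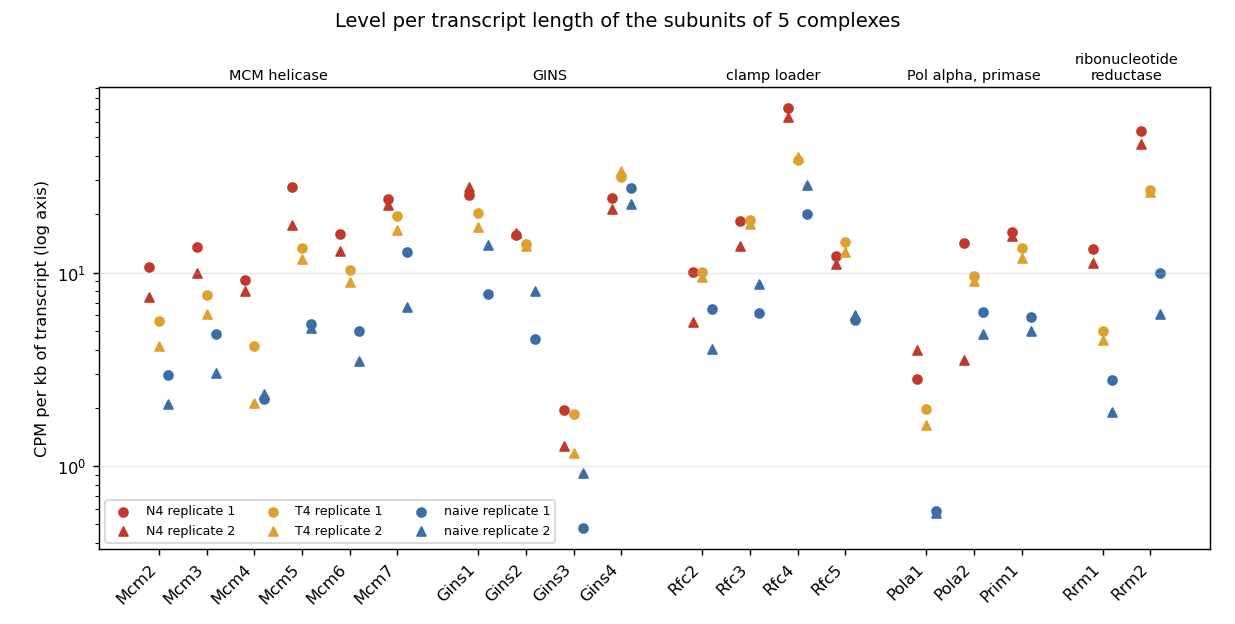
Level per transcript length (TMM-scaled CPM per kb, log axis) of the subunits of the MCM helicase, GINS, the clamp loader, polymerase alpha with primase, and ribonucleotide reductase in each of the 6 libraries; circles are replicate 1 and triangles replicate 2. Gins3 lies lowest of its complex in every library, and the Gins4 levels of naive and N4 libraries overlap.

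Another list held 46 further replication genes. Of these, 17 rose and 1, Pold4, fell in N4 against naive, where 4.87% of all genes tested rose and 7.18% fell. None passed in T4 against naive, where 0.117% of all genes did (14 at an unadjusted p under 0.05, against 14.5% of all genes). In N4 against T4, 8 were higher and Pold4 was lower, against 3.48% and 4.47% of all genes. The median log2 differences were 1.22, 0.48 and 0.60, against -0.09, 0.00 and -0.20 over all genes tested. Atad5, which unloads PCNA, stood at 6.25 and 6.83 CPM with N4, 2.36 and 2.94 with T4 and 0.708 and 0.785 in naive cells, and N4 against naive gave a log2 difference of 3.13 (adjusted p = 0.00938). Its 3 groups did not overlap. Pole2, an accessory subunit of polymerase epsilon, stood at 44.5 and 52.2 CPM in N4 and at 13.9 and 13.4 in T4, a level within the range of naive libraries, 12.5 and 13.9. Pold4, the smallest subunit of polymerase delta, went the other way: 12.7 and 15.1 CPM with N4, 37.9 and 44.3 with T4 and 46.7 and 44.3 in naive cells, with -1.71 in N4 against naive (adjusted p = 0.0138). Fitted values lay below 0 for 5 of the 46 in N4 against naive and for 8 in N4 against T4. Besides Pold4, those below naive were Rnaseh2a (-0.79), Pold2 (-0.50), Pole3 (-0.24) and Rrm2b (-0.12), none past the threshold. Rnaseh2a, Pold2 and Pole3 also lay below T4 (-1.20, -1.21 and -0.90), again none past the threshold. Recql4, a helicase of the same list, was at 0 in N4 and naive libraries and at 0.416 and 0.767 CPM in T4, so no fold is given.

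The G2 and mitosis genes, a list of 20, had larger median differences than the replication genes. Of the 20, 18 rose in N4 against naive (median log2 difference 2.81), where 4.87% of all genes tested rose. None passed in T4 against naive, where 0.117% of all genes did (median 1.33, 18 at an unadjusted p under 0.05, against 14.5% of all genes). In N4 against T4, 8 were higher (median 1.39), against 3.48% of all genes. Mki67, the proliferation antigen, stood at 32.4 and 35.0 CPM with N4, 14.1 and 11.9 with T4 and 4.37 and 4.62 in naive cells, with no overlap. Kif11, the kinesin that pushes spindle poles apart, stood at 18.8 and 20.3 CPM with N4, 5.42 and 4.50 with T4 and 2.41 and 1.83 in naive cells, again in separate ranges. The median level of the 20 genes was 31.3 and 27.8 CPM with N4, 13.1 and 10.8 with T4 and 5.60 and 4.93 in naive cells. Divided by the median of the 39 replication and S phase genes, this was 0.874 and 0.969 with N4, 0.547 and 0.507 with T4 and 0.498 and 0.527 in naive cells. By that ratio, N4 lay above T4 and naive, which overlapped. The ratio does not depend on library scaling.

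Of 16 E2F and RB family regulators, 4 rose in N4 against naive, where 4.87% of all genes tested rose. They were E2f2, E2f3 and E2f8, members of the E2F family, and Tfdp1, a binding partner of E2f2 and E2f3. None passed in T4 against naive (6 at an unadjusted p under 0.05, against 14.5% of all genes) or in N4 against T4 (7, against 29.2%). Of all genes tested, 0.117% and 7.96% passed in these comparisons. The median log2 differences of the 16 were 0.74, 0.72 and 0.37, and 4 of them lay below 0 in N4 against naive, none past the threshold. Cdkn1b, an inhibitor of cyclin-dependent kinases, stood at 8.89 and 10.99 CPM with N4, 16.7 and 19.5 with T4 and 19.4 and 20.4 in naive cells, and gave -1.004 ± 0.246 in N4 against naive (adjusted p = 0.0511). Its N4 libraries lay below the other 4. Tfdp2, a second E2F binding partner, gave -1.16 ± 0.53 (adjusted p = 0.200), also without overlap, E2f4 -0.63 ± 0.59 and E2f5 -0.51 ± 0.40 (adjusted p 0.515 and 0.431), both with overlap. E2f2 stood at 26.6 and 20.1 CPM with N4, 10.02 and 10.37 with T4 and 4.36 and 3.31 in naive cells, with a log2 difference of 2.61 in N4 against naive (adjusted p = 0.00958). E2f3 stood at 8.31 and 10.2, 4.76 and 4.44, and 1.71 and 2.09 CPM. For E2f2 and E2f3 the 3 groups were separated, unlike for E2f1, whose N4 and T4 levels overlapped.

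**Figure D4:**
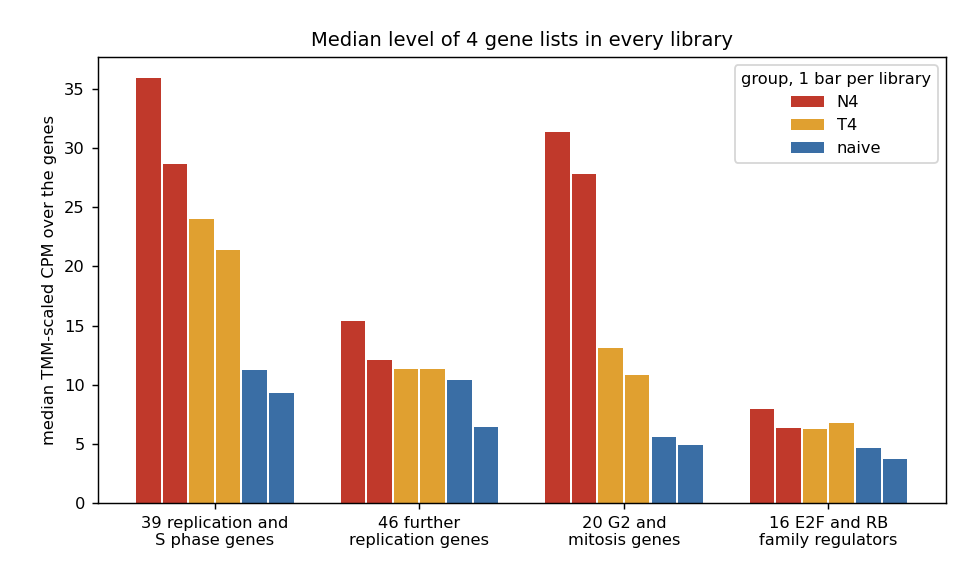
Median TMM-scaled CPM of the 39 replication and S phase genes and of 3 other lists, with 1 bar per library. The median of the 39 genes falls from 35.9 and 28.7 in N4 to 11.3 and 9.36 in naive libraries, and that of the 20 G2 and mitosis genes from 31.3 and 27.8 to 5.60 and 4.93.

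Among transcripts of 1 gene, usage was tested with diffSpliceDGE for 35 of the 39 genes. Mcm3 passed in N4 against naive (adjusted p = 0.0159) and in T4 against naive (adjusted p = 0.0477), 1 gene of 35 each, where 0.779% and 0.26% of 10393 genes tested passed. In N4 against T4 none of the 35 passed (2 at an unadjusted p under 0.05), against 1.03% of all genes (11.2% at an unadjusted p under 0.05). The transcript concerned, Mcm3-202, is annotated as a retained intron. It held 5.96% and 58.6% of the Mcm3 counts in N4, 7.78% and 18.4% in T4 and 0% in both naive libraries. The N4 libraries thus spanned a wide range, and the calls ended with the replicate number as a block and without T4 replicate 1, T4 replicate 2, naive replicate 1 or naive replicate 2. On simulated counts this test called more unchanged genes than its threshold allows. The spread of those counts was fixed and not taken from these data, so the rate here is not known. The protein-coding transcript Mcm3-201 held 93.2% and 41.2% with N4, 91.8% and 80.4% with T4 and 99.9% and 99.0% in naive cells.

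Dut has a pair of coding transcripts. The longer, Dut-201, held 77.2% and 81.3% of the Dut counts with N4, 55.1% and 61.2% with T4 and 45.998% and 50.2% in naive cells. The groups did not overlap, at 79.2% ± 2.9, 58.1% ± 4.3 and 48.1% ± 3.0 (SD, n = 2), but the usage test over all genes did not pass for Dut (adjusted p = 0.726 in N4 against naive). For Tyms, transcripts coding for protein held 35.5% and 83.6% of the counts with N4, 33.9% and 41.4% with T4 and 79.9% and 86.8% in naive cells. The retained intron transcript Tyms-206 held 37.6% and 2.75% with N4, 46.4% and 38.2% with T4 and 11.2% and 2.52% in naive cells. N4 replicate 1 thus stood near the T4 libraries and N4 replicate 2 near the naive ones, and the test did not pass (adjusted p = 0.180 in N4 against naive). The gene-level difference of Tyms counts all of its transcripts.

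The kit used does not mark strand, so reads from genes that overlap on opposite strands cannot be told apart. The exons of 14 of the 39 genes overlap those of another gene in the GENCODE M21 models, and 11 of the 14 share bases with a protein-coding gene. The longest overlaps with coding genes on the other strand are those of Gins2 with Gse1 (2758 bases), Rfc2 with Lat2 (952), Rfc5 with Wsb2 (499) and Ccne2 with Ints8 (474). Gse1 stood at 2.87 to 9.78 CPM over the 6 libraries and Lat2 at 0.132 to 9.67. The neighbours of the highest level share fewer bases. Tmem258, which shares 75 bases with Fen1, stood at 537 to 2367 CPM, where Fen1 stood at 7.70 to 32.2. Cops6 (64 bases shared with Mcm7) stood at 288 to 541 CPM and Eif4a2 (186 bases shared with Rfc4) at 37.6 to 90.8. Ufd1 (164 bases shared with Cdc45) stood at 32.1 to 52.0 CPM, where Cdc45 stood at 1.62 to 18.1. Tmem258 was highest in both N4 libraries and Eif4a2 in both naive ones, while Ufd1 was lowest in both N4 libraries. The part of these neighbours in the values of Fen1, Mcm7, Rfc4 and Cdc45 was not tested. Ints8 stood at 10.9 and 8.66 CPM with N4, 6.64 and 5.26 with T4 and 4.95 and 5.80 in naive cells, far from the levels of Ccne2 in N4 and close to them elsewhere.

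The differences moved with base composition. Across the 39 genes, Spearman's rho between the GC content of a gene's transcripts and its log2 difference was -0.37 in N4 against naive, 0.09 in T4 against naive and -0.47 in N4 against T4, as a description over genes that share the same libraries. Over 22732 genes with a model the values were -0.16, 0.09 and -0.24. Ccne2, with the largest difference, also had the lowest GC content of the list, 35.2%. With a correction for GC content the median log2 differences were 1.70, 1.05 and 0.64 and the counts past the threshold 25, 0 and 4 (11.1%, 0.0652% and 4.78% of all genes), with 22 of the 23 and 3 of the 5 genes among them. Dut and Rrm1 were those that no longer passed in N4 against T4. The part of base composition beyond this correction was not tested.

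**Figure D5:**
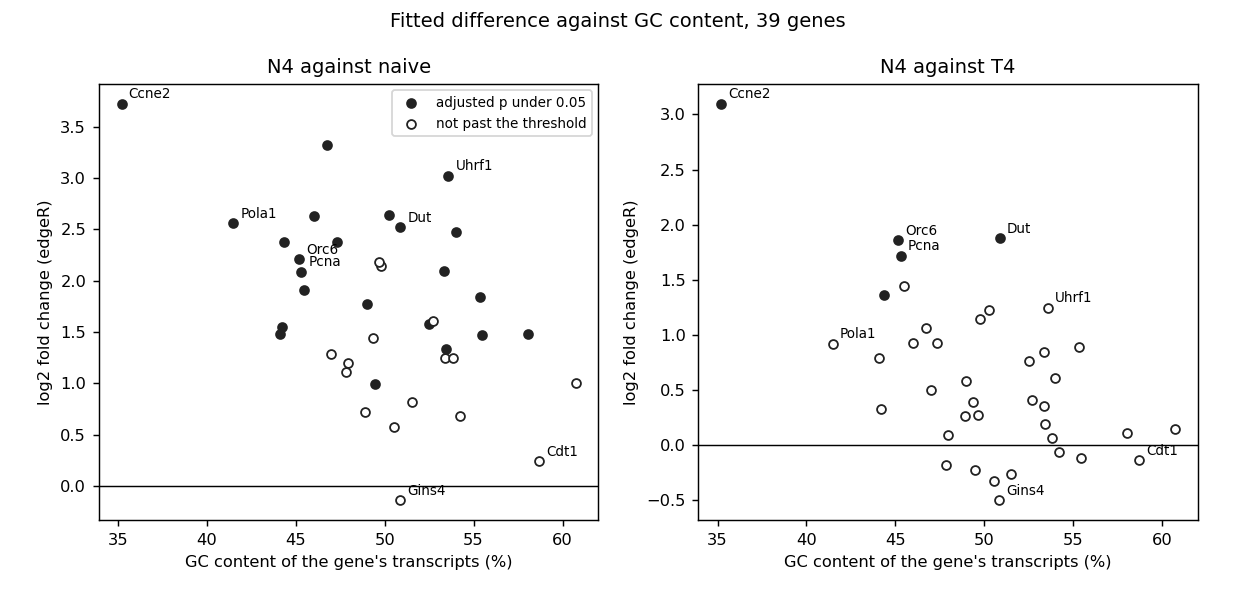
Fitted log2 fold change (edgeR, TMM scale) of the 39 genes against the GC content of their transcripts in percent, for N4 against naive (left) and N4 against T4 (right), with filled points at an adjusted p under 0.05. Spearman's rho was -0.37 and -0.47, and Ccne2 lies at the lowest GC content, 35.2%, with the largest difference in both panels; in N4 against T4, 24 of the 39 values fall below 0 with library totals.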

How the data were processed

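RNA of 6 libraries in 3 groups of 2 was isolated (QIAGEN miRNeasy Micro) and amplified from its poly(A) tails (SMARTer ultra-low input), per the labels' protocols. The authors deposited estimated counts per gene and per transcript, not normalized. The submitters' processing notes name STAR 2.7.1a, StringTie 2.1.0, DESeq2 1.30.1, R 4.0.5, SAMtools 1.9 and the build mm39, with no roles. Neither the annotation release nor the strand setting is given in the sources used here. If the estimates come from coverage, their totals are not numbers of reads.

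All 55414 genes were read. Genes passing filterByExpr by group (23003) were fitted with edgeR 4.0.16 (R 4.3.3) with TMM scaling and group means over all 6 libraries, and tested by quasi-likelihood, calling genes at 0.05 after Benjamini-Hochberg adjustment. A standard error is the log2 difference over the square root of its F statistic. Symbols were found for 94% of identifiers, and GENCODE M21 models (GRCm38) gave lengths, GC content and transcript types. Transcript usage was tested with diffSpliceDGE on 42444 transcripts. Procedures were tested on simulated counts. No library was a duplicate of its partner (chi-square per degree of freedom 343, 118 and 2207 in N4, T4 and naive). An exact permutation test of 2 against 2 cannot go below 0.33, so none is given. Alternatives were library totals, DESeq2 size factors, DESeq2 1.42.0, no filter, only the groups compared, the replicate number as a block, and each library left out. Corrections for GC content and length were chosen after seeing the data.

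The 39 genes, their roles, the further lists and the markers were chosen with earlier results of these data known. Of each role group, up to 3 genes with the smallest p in each comparison and those that went against their group are described in full. Of each other list up to 4 genes are described, and those fitted against it in N4 against naive are named. The other genes are given by ranges, counts or shorter values.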

Additional observations from a re-analysis of the deposited data

How the results depend on the processing

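Over 14 alternatives for each of the 39 genes in each of the 3 comparisons there were 1638 fitted differences. Of these, 1377 kept their direction and their side of the threshold, 102 lost the call, 107 gained one and 52 changed sign, none of them a difference past the threshold on the reported fit. The 5 genes past it in N4 against naive under every alternative were Orc1, Pola1, Pole, Ccne2 and Uhrf1, and no gene was so in N4 against T4. The cause of each change was not tested. With only 2 libraries a group, leaving out 1 leaves a lone sample that is assumed to vary like the other groups.

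The share of all genes called by the same fit is in parentheses. Against 23 genes (12.1%) called in N4 against naive, 9 (10.7%) were called with library totals and 11 (5.04%) with only the groups compared, and leaving out 1 library gave 8 to 27 (2.45% to 17.4%). Against 0 (0.117%) in T4 against naive, 1 (0.23%) was called with library totals, 17 (9.87%) with DESeq2's Wald test, 11 (2.74%) with no filter on low counts and 2 (0.635%) with the length correction, and leave-one-out fits gave 0 to 3 (0% to 1.39%). Against 5 (7.96%) in N4 against T4, 14 (27.3%) were called with DESeq2's Wald test and 13 (24.7%) with only the groups compared, and leave-one-out fits gave 0 to 12 (0% to 17.6%). Without an N4 or a T4 library, edgeR called 0 of the 39 in N4 against T4 (0% to 1.13% of all genes). The median log2 difference was 0.99 with library totals in N4 against naive (leave-one-out 1.40 to 1.78). In T4 against naive it was 1.39 with library totals and 0.96 with the length correction (leave-one-out 0.91 to 1.15). In N4 against T4 it was -0.37 with library totals and 0.72 with the length correction (leave-one-out 0.42 to 0.64). Library totals moved the median of all genes tested to -0.65, 0.30 and -1.05 in the 3 comparisons. The number of genes with changed transcript usage, 1, 1 and 0, ran from 0 to 2, 0 to 2 and 0 to 1 when 1 library was left out.

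The labels give the groups the replicate numbers 1 and 2, and libraries of the same number deviated from their group means together (correlations over 6446 genes of 0.27 for N4 and T4, 0.42 for N4 and naive and 0.25 for T4 and naive). With 2 numbers this does not show that they mark a shared mouse or batch. With the replicate number as a block the counts were 28, 0 and 8 (15.7%, 0.565% and 14.6% of all genes), and the genes with changed transcript usage were 0 in N4 against naive, 0 in T4 against naive and 0 in N4 against T4.

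The differences that changed sign are these, in log2. With library totals in N4 against naive they were Cdt1 -0.29 and Rfc2 -0.00037. With library totals in N4 against T4 they were Cdc6 -0.44, Mcm3 -0.068, Mcm6 -0.26, Mcm7 -0.50, Cdc45 -0.54, Gins1 -0.37, Gins2 -0.66, Gins3 -0.74, Prim1 -0.53, Pold1 -0.65, Rfc4 -0.052, Rpa1 -0.59, Fen1 -0.76, Lig1 -0.23, Ccne1 -0.41 and E2f1 -0.73. With no filter in N4 against T4 they were Gins3 -0.047, Fen1 -0.071 and E2f1 -0.032. In N4 against T4 the GC correction gave Cdt1 0.48, Gins3 -0.034, Pola2 0.25, Prim1 -0.054 and Tk1 0.35, and the length correction gave Cdt1 0.16, Pola2 0.15, Rfc3 0.0054, Rfc5 0.00049, Rpa2 0.052 and Tk1 0.11. Leaving out 1 library changed the sign of 2 genes in N4 against naive, Cdt1 (-0.14 to 0.53) and Pola2 (-0.65 to 1.36), and of 2 in T4 against naive, Orc6 (-0.025 to 0.70) and Mcm4 (-0.16 to 0.80). In N4 against T4 it did so for Cdt1 (-0.51 to 0.16), Cdc45 (-0.19 to 0.62), Gins3 (-0.26 to 0.42), Pola2 (-1.40 to 0.61), Pold1 (-0.28 to 0.49), Rfc2 (-0.82 to 0.034), Rfc3 (-0.42 to 0.015), Rpa2 (-0.59 to 0.0029), Fen1 (-0.22 to 0.30), E2f1 (-0.10 to 0.28) and Tk1 (-0.29 to 0.0032). Genes of low level, such as Orc1 at 0.268 to 3.43 CPM, rest on the fewest counts of the list.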
